A study of Mus musculus with 10 samples.

Results

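Collagen chain genes, taken as all genes whose symbol has the form Col, a number, the letter a and a number, were described in laser-captured ameloblasts and stratum intermedium of mice with and without claudin-10. Col17a1, a hemidesmosome protein of epithelial cells, was left out by this rule. The rule found 41 chains among 17305 genes, of which 40 were listed in the ameloblast table, 40 in the stratum intermedium table and 39 in both. Col20a1 was listed in the ameloblast table alone and Col6a4 in the stratum intermedium table alone. By class there were 11 fibrillar chains, 6 basement membrane (Col4) chains, 8 fibril-associated (FACIT) chains, 6 beaded-filament (Col6) chains, 2 short-chain network (Col8) chains, 3 transmembrane chains, 2 multiplexins, 1 anchoring fibril chain (Col7a1) and 2 others (Col26a1 and Col28a1). The study measured polyA RNA in 10 libraries from mouse hemi-mandibles, with 2 wild type (WT) and 3 claudin-10 knockout (KO) libraries from each of the 2 cell layers. No other treatment is labelled. Strain, sex and age, and which exons of Cldn10 the knockout lacks, are not given in the labels used here. Library names carry the prefixes WT10, WT5, KO1, KO3 and KO9 in both layers. WT10 is WT replicate 1 and WT5 is WT replicate 2 in each layer. The prefixes were taken to mark mice, which the labels do not state, so p-values measure only how these libraries vary, and that variation may be technical.

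A collagen is built from 3 polypeptide chains wound into a triple helix, and each chain has its own gene. Fibrillar collagens (types I, II, III, V and XI, with the later-described Col24a1 and Col27a1) form the cable-like fibrils of bone, dentin, cartilage and connective tissue. Collagen IV forms the sheet-like network of basement membranes, the layer under epithelia and around blood vessels. In a tooth, type I collagen is the main protein of the dentin made by odontoblasts and of the bone made by osteoblasts, while enamel matrix is made of amelogenin and other proteins that are not collagens. Ameloblasts secrete that enamel matrix, and the stratum intermedium is the cell layer that backs them.

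Both captures held transcripts of other cell types. Of 18 ameloblast markers, the 16 listed made up 2.29% to 9.28% of the summed values of an ameloblast library, and the 17 listed in the stratum intermedium table made up 0.16% to 0.976% there. The shares of 16 stratum intermedium and papillary layer markers overlapped between the captures, at 0.494% to 1.11% in that layer and 0.337% to 0.79% in ameloblasts. The 14 osteoblast and osteocyte markers made up 2.00% to 4.86% in ameloblast libraries and 1.91% to 5.77% in stratum intermedium libraries, and no library was at 0 for any of them. All 14 endothelial markers were listed too, at 0.0123% to 0.0368% in ameloblasts and 0.0492% to 0.0684% in the stratum intermedium. The 14 listed odontoblast and pulp markers made up 0.899% to 1.61% in ameloblast libraries and 0.271% to 0.852% in the other layer. Of 10 cartilage markers, Comp, Matn1, Snorc and Ucma were listed in neither table. Cldn10 stood at 600.1 and 752 normalized counts in WT and 149 to 408 in KO ameloblasts, and at 7257 and 2365 in WT and 387 to 1003 in KO stratum intermedium, with no overlap in either layer. WT10 had the most genes at 0 in each table (706 and 854), and the female transcript Xist was abundant in KO1 and KO3 alone. In such captures, fewer cells of a type and less RNA per cell cannot be told apart. The values of a library summed to between 21006977 and 26856177, the depth before normalization is unknown, and the 2 tables had been normalized separately.

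Type I collagen dominated the family in every library. Col1a1 and Col1a2, which encode the pair of chains of type I collagen, together made up 2.03% to 4.12% of an ameloblast library and 1.64% to 4.44% of a stratum intermedium library, and all other chains except Col3a1 together made up 0.285% to 0.571%. Col1a1 (ENSMUSG00000001506, chromosome 11, 94936224 to 94953042 in GRCm38) stood at 380327 normalized counts in WT10, 507179.7 in WT5, 351231 in KO1, 373504 in KO3 and 401432 in KO9 of the ameloblast captures. Its stratum intermedium values were 185938 in WT10, 563493 in WT5, 307601 in KO1, 330773 in KO3 and 296138 in KO9. The 2 WT libraries of the stratum intermedium therefore lay below and above all 3 KO libraries. Col1a2 (chromosome 6, 4504814 to 4541544) likewise had its lowest value there in WT10, at 158808, and its highest in WT5, at 505170.4, with the KO libraries at 234832 to 297478.

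Levels of different chains were compared per kilobase of exon. The length covers all annotated exons of a gene and can exceed that of a single transcript, so the order of chains depends on it. In both layers the order from the top was Col1a1, Col1a2, Col3a1, Col5a2 and Col11a1, with means over 5 libraries of 61364, 23198, 3147, 1797 and 1313 normalized counts per kilobase in ameloblasts and 51316, 23182, 6734, 2236 and 1391 in the stratum intermedium. Col1a1 and Col1a2 did not overlap in ameloblasts (lowest Col1a1 library 53517, highest Col1a2 library 33966) but did in the stratum intermedium, while within a library Col1a1 lay above Col1a2 in 5 of 5 libraries of each layer. Col3a1, the chain of type III collagen in soft connective tissue and vessel walls, stayed below every Col1a2 value, at 1764 to 4804 per kilobase in ameloblasts and 4373 to 9019.8 in the stratum intermedium. Col5a2 and Col11a1 encode chains of types V and XI, which co-assemble with type I or II fibrils and set their width. Their per-kilobase ranges overlapped, at 1450.4 to 2427 for Col5a2 and 1013 to 1752 for Col11a1 in ameloblasts. Within a library Col5a2 lay above Col11a1 per kilobase in 5 of 5 libraries of each layer. Before division by length, Col11a1 was the higher in KO1 of the ameloblast captures, at 15373 against 13911 normalized counts. Among the other fibrillar chains, Col5a1 and Col11a2 had means of 627 and 859 in ameloblasts and 671 and 644 in the stratum intermedium. Col24a1, Col27a1 and Col5a3 were the least abundant fibrillar chains, with means of 121, 296 and 33.1 in ameloblasts and 122, 96.7 and 50.6 in the stratum intermedium.

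**Figure D1:**
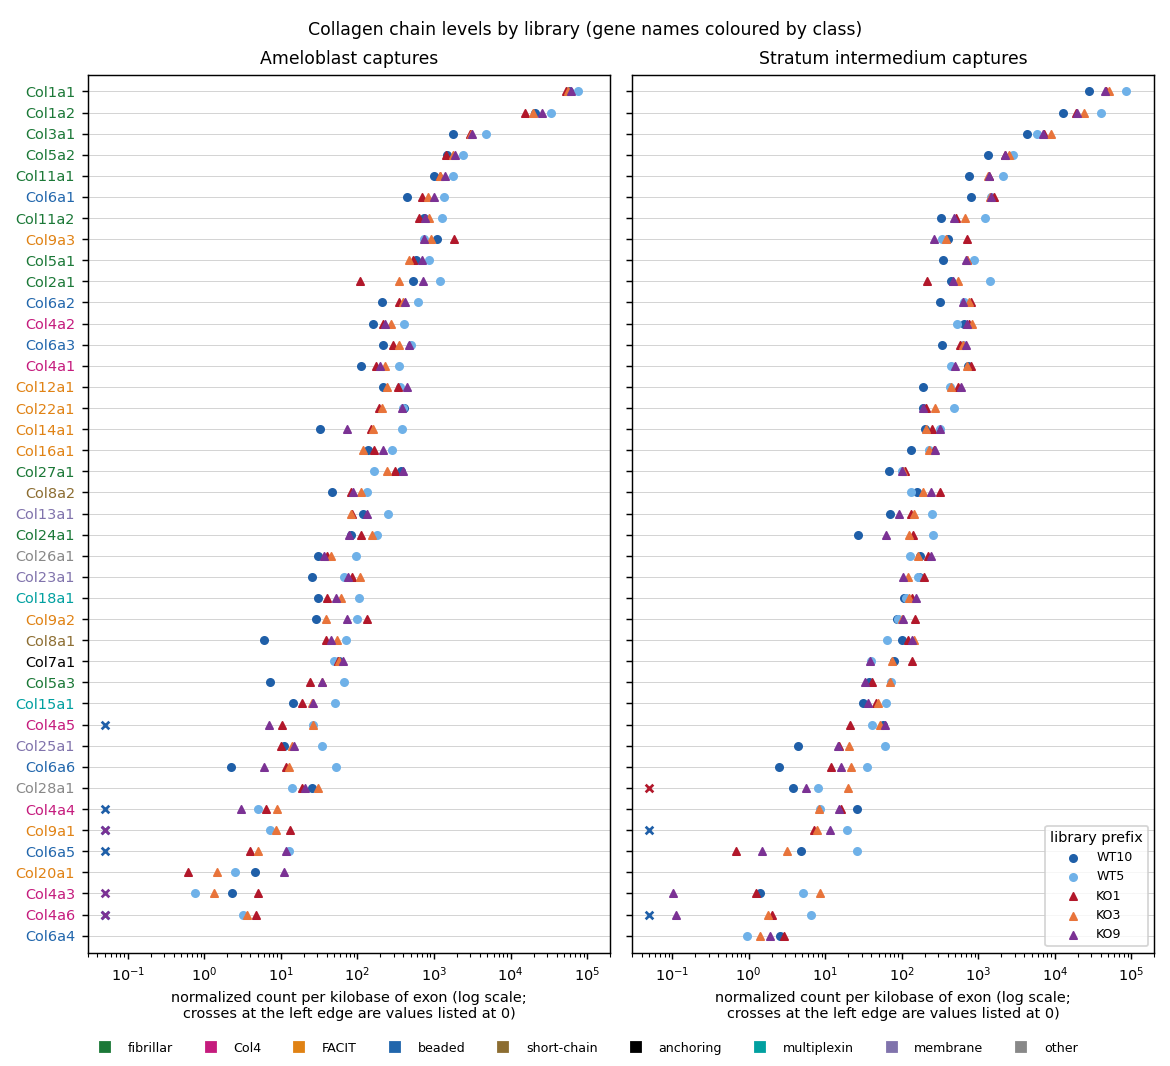
Normalized counts per kilobase of exon (log axis) of every collagen chain in each library of the ameloblast (left) and stratum intermedium (right) captures. Circles are WT and triangles KO libraries, crosses are values listed at 0 (where 2 libraries were at 0 their crosses overlap), and gene names are coloured by class. Col1a1 and Col1a2 stand above all other chains, while Col4a3 to Col4a6 lie near the bottom.

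Col2a1 (chromosome 15, 97975602 to 98004695, minus strand), the type II chain best known from cartilage, was present in every library with a wide spread. It stood at 4864 in WT10, 11049 in WT5, 1012 in KO1, 3205 in KO3 and 6637 normalized counts in KO9 of the ameloblast captures, and at 4044, 13131, 1958, 4969 and 4348 in the same order in the stratum intermedium. WT5 was highest and KO1 lowest in each layer. The cartilage gene Acan did not share that order, at 57.0 in WT10, 116 in WT5, 273 in KO1, 66.1 in KO3 and 353 in KO9 of the ameloblast captures, and the cartilage regulator Sox9 was at 1742 in WT5 and 3207 in KO1. Over the 10 libraries, each centred on its layer mean, the log2 values of Col2a1 had r = -0.25 with Acan and r = -0.80 with Sox9, given as a description since the libraries share 5 prefixes.

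The 6 basement membrane chains split into an abundant pair and 4 scarce chains. Col4a1 and Col4a2 encode the chains of the collagen IV network found in nearly all basement membranes, and Col4a3 to Col4a6 those of networks with a narrower tissue range. Col4a1 stood at 820.3 in WT10, 2631 in WT5, 1326 in KO1, 1727 in KO3 and 1495 normalized counts in KO9 of the ameloblast captures. Its stratum intermedium values were 5501, 3279, 5923, 5277 and 3704 in the same order, and all 5 values there exceeded all 5 of the separately normalized ameloblast table. WT5 was the highest ameloblast library and the lowest stratum intermedium library. Col4a2 had 1.01 to 1.31 times the Col4a1 value of the same ameloblast library and 0.792 to 1.26 times that value in the stratum intermedium, and its r with Col4a1 over the 10 layer-centred libraries was 0.91. Col4a3 stood at 0 to 50.2 in ameloblasts and 1.04 to 84.4 in the stratum intermedium. Col4a4 stood at 0 to 94.8 and 87.3 to 276, Col4a5 at 0 to 177 and 143 to 412, and Col4a6 at 0 to 38.3 and 0 to 52.2. WT10 was listed at 0 for Col4a4, Col4a5 and Col4a6 in ameloblasts, and their WT means on the log2 scale include that 0.

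The collagen IV chains are encoded as pairs of neighbours on opposite strands. Col4a1 (chromosome 8, 11198423 to 11312826, minus strand) and Col4a2 (11312805 to 11449287, plus strand) overlap at their starts, Col4a3 and Col4a4 on chromosome 1 have a gap of 71 bases, and Col4a5 and Col4a6 on the X chromosome a gap of 1308 bases. The first 22 bases of the annotated Col4a1 and Col4a2 genes are the same stretch of DNA read from opposite strands. It is shown because it joins the starts of the Col4 neighbours with the highest r, and is taken from RefSeq (GRCm38.p6), on the plus strand of chr8:11312805-11312826:
Col4a1 and Col4a2 shared start: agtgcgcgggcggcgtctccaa
The scarce pairs had lower values, with r = -0.20 for Col4a3 with Col4a4 and r = 0.47 for Col4a5 with Col4a6, from low counts with libraries at 0.

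Among the other classes, the 3 chains of collagen VI, a beaded filament around cells, kept similar proportions. Col6a2 had 0.753 to 1.00 times and Col6a3 0.987 to 1.32 times the Col6a1 value of the same library across both layers, and the 3 chains had r of 0.91 to 0.97 with each other. Col6a1 stood at 1970.1 to 5862 normalized counts in ameloblasts and 3521 to 6986 in the stratum intermedium. Col6a5 and Col6a6, alternative chains of collagen VI, were scarce, at 0 to 119 and 20.5 to 479.6 in ameloblasts and 6.52 to 243 and 22.7 to 324 in the stratum intermedium. Col9a3, a chain of the FACIT collagen IX best known from cartilage, reached 734 to 1847 normalized counts per kilobase in ameloblasts, while its partners Col9a1 and Col9a2 stood at 0 to 13.2 and 28.7 to 135 per kilobase. Across the 10 layer-centred libraries Col9a1 and Col9a2 had an r of 0.42 with each other, and Col9a2 and Col9a3 one of 0.34. Col12a1 and Col14a1, FACIT chains that coat type I fibrils, stood at 3270.4 to 6813 and 225 to 2664 normalized counts in ameloblasts and at 2928 to 8952 and 1396 to 2250.5 in the stratum intermedium. Col7a1, the chain of the anchoring fibrils below epithelia, stood at 506 to 674 in ameloblasts, where its highest library was 1.33 times its lowest, the narrowest spread of the 40 chains, and at 395 to 1393 in the stratum intermedium.

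The layers were set side by side within each prefix, as the ameloblast minus stratum intermedium value on the log2(normalized count + 1) scale, after subtracting the median of all 15625 shared genes of that prefix (-0.17 to -0.11). Since the tables were normalized separately this is a description with no test. Col4, Col8 and multiplexin chains lay mostly on the stratum intermedium side. The median over chains was -1.05 for Col4, -1.36 for the Col8 short-chain network and -1.08 for the multiplexins, against -0.03 for fibrillar chains, -0.15 for FACIT chains and -0.22 for all 39 chains. In all 5 prefixes 7 chains were higher in the stratum intermedium (Col26a1, Col4a1, Col4a2, Col4a5, Col3a1, Col15a1 and Col6a3), a pattern held by 9.98% of all shared genes, and 5 were higher in ameloblasts (Col28a1, Col27a1, Col9a3, Col11a2 and Col1a1), a pattern held by 11.1%. Without centring these counts were 12 and 4, and Col1a1 was higher in ameloblasts in 4 of 5 prefixes. The shares of all genes were not counted without centring, so these counts cannot be set against 9.98% and 11.1%.

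Apart from the scarce Col28a1 (median 2.02), Col27a1 and Col9a3 had the largest ameloblast excess. Col27a1, a fibrillar chain known from cartilage, had differences of 2.54 in WT10, 0.90 in WT5, 1.61 in KO1, 1.39 in KO3 and 2.15 in KO9, from 2154 to 5116 normalized counts in ameloblasts and 902 to 1448 in the stratum intermedium. Col9a3 was the steadiest of all chains, with differences of 1.33 to 1.66 in the 5 prefixes. The median of Col27a1 exceeded those of 97.6% of all shared genes and that of Col9a3 97.3%. Amelx, the main enamel protein gene, had a median of 3.70, and the dentin gene Dspp one of 3.26, both higher in ameloblast captures in all 5 prefixes. The part of ameloblasts and odontoblasts in these chain differences was not tested.

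Col4a1 and Col4a2 had differences of -2.64 to -0.14 and -1.91 to -0.23, with medians of -1.45 and -1.46. Col3a1 had -1.40 to -0.13 with a median of -1.17. Col26a1 had the lowest median of the family at -2.34, and its range was -2.55 to -0.22. In each of these 4 chains WT5 gave the value nearest to 0. The endothelial genes Pecam1 and Cdh5 had medians of -1.59 and -1.62, Pecam1 on the stratum intermedium side in 5 of 5 prefixes and Cdh5 in 4, and the pericyte gene Rgs5 had -1.48. The summed endothelial share did not overlap between layers, at most 0.0368% in ameloblasts and at least 0.0492% in the stratum intermedium. Its part in the Col4 and Col3a1 differences was not tested.

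**Figure D2:**
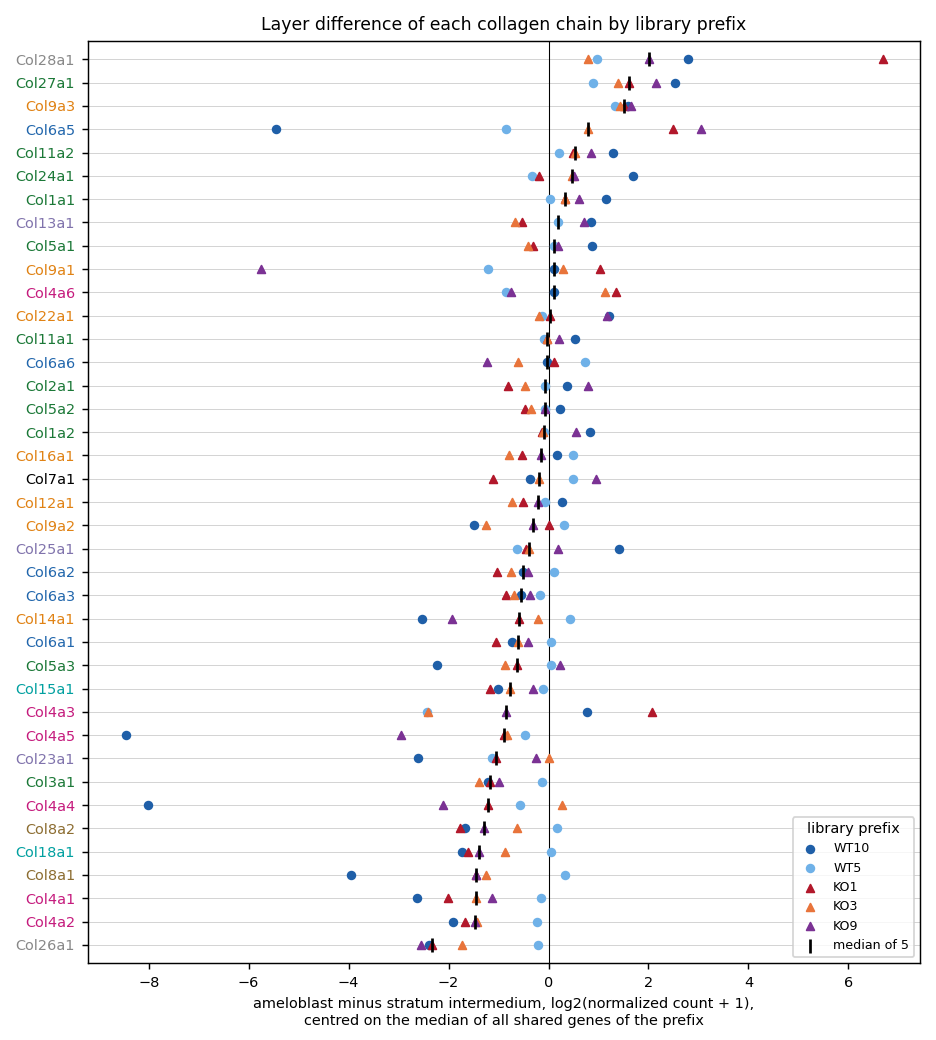
Ameloblast minus stratum intermedium value of each of 39 collagen chains in each library prefix, on the log2(normalized count + 1) scale centred on all shared genes. Circles are WT and triangles KO prefixes, and black bars the median of 5. Col4a1, Col4a2 and Col3a1 lie below 0 in all 5 prefixes, while Col27a1 and Col9a3 lie above.

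The 2 WT libraries were often the highest and the lowest library of a chain. In ameloblasts WT5 was the highest library for 26 of 40 chains, including 10 of 11 fibrillar chains, against 24.8% of all genes. WT10 was the lowest library for 23 of 40 chains, against 25.3% of all genes, but for 3 of 11 fibrillar chains, of which KO1 was lowest for 5. In the stratum intermedium WT5 was highest for 17 of 40 chains and 9 of 11 fibrillar chains (20.03% of all genes), and WT10 lowest for 24 of 40 and 9 of 11 fibrillar chains (28.2% of all genes). Summed fibrillar chains were 2.92% of WT10 and 4.67% of WT5 in ameloblasts, where KO1 lay below both at 2.30%, and 2.00% and 5.05% in the stratum intermedium, on either side of the KO range of 3.04% to 3.47%. The osteoblast and osteocyte markers were at 2.84% in WT10 and 4.86% in WT5 of the ameloblast captures and 1.91% and 5.77% in the stratum intermedium. WT5 also had the highest share of osteoclast markers (0.763% and 0.929%) and of red blood cell markers (1.28% and 0.911%) in both layers. The 16 listed of 17 fibroblast and dental follicle markers, of a cell type that makes fibrillar collagen, were lowest in WT10 and highest in WT5 in both layers, at 0.171% and 0.446% in ameloblasts and 0.212% and 0.497% in the stratum intermedium. The 12 skeletal muscle markers ran from 0.0225% in WT10 to 0.395% in WT5 in ameloblasts and from 0.122% in WT10 to 0.785% in KO3 in the stratum intermedium. Leukocyte markers (9 and 10 of 11 listed) were highest in WT5 in both layers, with ranges of 0.0125% to 0.049% and 0.0124% to 0.0586%. Schwann and nerve markers (8 of 9 listed) stayed at 0.00905% to 0.0202% and 0.017% to 0.0287%, and the listed cartilage markers at 0.0107% to 0.0158% and 0.0148% to 0.0269%. The part of these cells in the fibrillar spread was not tested.

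**Figure D3:**
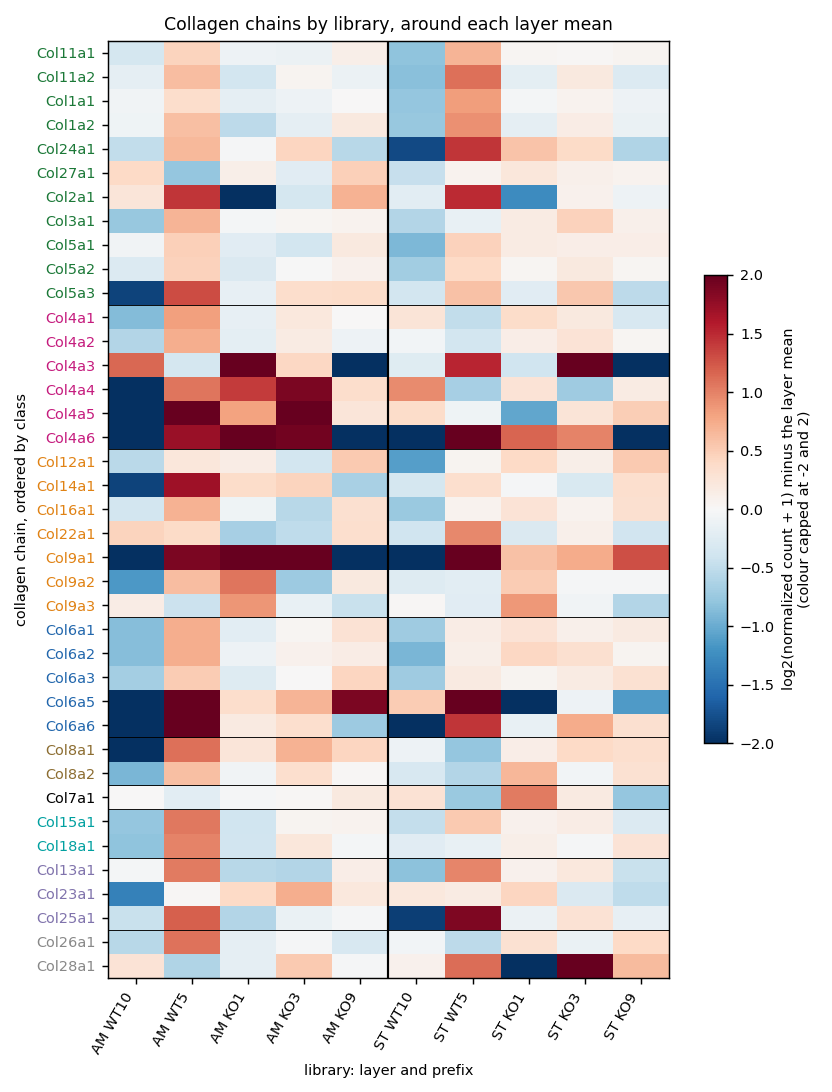
Log2(normalized count + 1) of 39 collagen chains (rows, ordered by class) in the 10 libraries (columns), minus the mean of the layer, with colours capped at -2 and 2. In the stratum intermedium 9 of 11 fibrillar chains are highest in WT5 and 9 of 11 lowest in WT10.

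The comparison of KO with WT ameloblasts asks which collagen chains differ in captures that lack claudin-10. With limma, 0 of 16212 genes passed an adjusted p of 0.05 (0% of all genes), and 498 had an unadjusted p under 0.05. All 40 chains passed the filter on low values, 6 of them with a library at 0. The chains split into 21 with a higher and 19 with a lower mean log2 value in KO, with a median difference of 0.05, against 53.0% higher and a median of 0.04 over all genes. Fibrillar chains had a median of -0.16 with 3 of 11 higher, Col4 chains 0.54 with 4 of 6 higher, FACIT chains 0.18 with 5 of 8 higher and Col6 chains 0.10 with 4 of 5 higher. At an unadjusted p under 0.05 there was 1 chain higher in KO, where 2.25% of all genes were, and 0 lower, where 0.82% were. With the replicate number as a block, 0 chains were higher (1.35% of all genes) and 1 lower (Col2a1, against 0.833% of all genes), and with the group number in the library names as a block 1 was higher (Col23a1, against 1.54%) and 0 lower (0.642%).

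That chain was Col23a1 (chromosome 11, 51289920 to 51583918), a transmembrane collagen. It stood at 146 in WT10, 382 in WT5, 495 in KO1, 620.3 in KO3 and 437 normalized counts in KO9, so that WT and KO libraries did not overlap. WT averaged 264 ± 167 (SD, n = 2) and KO 517 ± 93.9 (SD, n = 3), a log2 difference of 1.11 (SE 0.46, limma, adjusted p = 0.989). Without WT10 the difference was 0.42 and without WT5 it was 1.80. In the stratum intermedium it stood at 967 and 941 in WT and 590.2 to 1129.6 in KO, where the groups overlapped.

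Col22a1 (chromosome 15, 71795795 to 72034227, minus strand), a FACIT chain known from tissue junctions such as that of muscle and tendon, was the only chain below WT in every KO ameloblast library, at 3736 in WT10 and 3592 in WT5 against 1749 in KO1, 1947 in KO3 and 3488 in KO9 (log2 -0.68, SE 0.33, limma, adjusted p = 0.989). WT5 and KO9 were its nearest libraries. With sex as a covariate the difference was -0.07, but that value rests on KO9 against both WT libraries, because Xist was abundant in KO1 and KO3 alone. Groups that did not overlap were found for 1 of 40 chains in each direction, against 9.09% of all genes with KO above WT and 9.26% with KO below. Col1a1 averaged 443753 ± 89698 in WT and 375389 ± 25153 in KO (log2 -0.23, SE 0.39, adjusted p = 0.989). Col2a1 had the most negative difference of the fibrillar chains, at -1.40 (SE 0.76, adjusted p = 0.989), with KO9 inside the WT range. Col4a4, Col4a5 and Col4a6 had differences of 3.03, 2.66 and 1.05 with SEs of 1.66 to 2.25, from WT groups with a library at 0.

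The same comparison in the stratum intermedium gave 0 of 16543 genes past an adjusted p of 0.05 with limma (0% of all genes) and 340 with an unadjusted p under 0.05. Of 40 chains, 26 had a higher and 14 a lower mean log2 value in KO, with a median difference of 0.22, against 51.9% higher and a median of 0.02 over all genes. Beaded-filament chains had a median of 0.45 with 5 of 6 higher, FACIT chains 0.39 with 6 of 7 higher, fibrillar chains 0.11 with 6 of 11 higher and Col4 chains -0.06 with 3 of 6 higher. At an unadjusted p under 0.05 there were 4 chains higher in KO (Col3a1, Col12a1, Col8a1 and Col8a2), where 1.27% of all genes were, and 1 lower (Col6a5), where 0.786% were. With a block on the unexplained group number that closes each library name, where KO1 has no WT partner, 2 chains were higher (Col12a1 and Col8a1), where 1.86% of all genes were, and 0 lower, where 1.09% were. With the replicate number as a block, 1 chain was higher (Col12a1), where 0.586% of all genes were, and 0 lower, where 0.532% were. The smallest adjusted p of any chain was 0.9999.

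Col3a1 (chromosome 1, 45311538 to 45349706) stood at 42929.6 in WT10, 58077 in WT5, 71744 in KO1, 88538 in KO3 and 69219 normalized counts in KO9 of the stratum intermedium captures. All 3 KO libraries lay above both WT libraries, which averaged 50503 ± 10711 (SD, n = 2) against 76500.5 ± 10501 in KO (SD, n = 3), a log2 difference of 0.61 (SE 0.22, limma, adjusted p = 0.9999). Its 5 leave-one-out differences ran from 0.39 to 0.82, with 2 of 5 at an unadjusted p under 0.05. In ameloblasts Col3a1 had no such separation, at 17319.5 in WT10, 47160.1 in WT5 and 28777 to 31011 in KO (log2 0.07, SE 0.42).

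Col12a1 (chromosome 9, 79598991 to 79718831, minus strand) stood at 2928 in WT10, 6507 in WT5, 8273 in KO1, 6802 in KO3 and 8952 in KO9 of the stratum intermedium captures (log2 0.87, SE 0.33, limma, adjusted p = 0.9999). The groups did not overlap, but WT5 lay close to KO3, and without WT10 the difference was 0.29. The Col8 chains, which form a hexagonal network in vessel walls and under some epithelia, both had higher values in KO. Col8a1 (chromosome 16, 57624258 to 57754737, minus strand) stood at 798 in WT10, 500.3 in WT5, 935 in KO1, 1124 in KO3 and 1081 in KO9 (log2 0.72, SE 0.28, limma, adjusted p = 0.9999). Col8a2 (chromosome 4, 126286793 to 126314330) stood at 714 in WT10, 596 in WT5, 1412 in KO1, 855 in KO3 and 1097 in KO9 (log2 0.75, SE 0.28, limma, adjusted p = 0.9999). WT5 was the lowest stratum intermedium library for both Col8 chains, unlike for the fibrillar chains, and without WT5 the Col8a1 difference was 0.39.

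Col6a5 stood at 45.9 in WT10 and 243 in WT5 against 6.52 in KO1, 29.8 in KO3 and 14.1 normalized counts in KO9 of the stratum intermedium (log2 -2.82, SE 1.09, limma, adjusted p = 0.9999), all low values. KO libraries lay above both WT libraries for 7 of 40 chains (Col3a1, Col12a1, Col8a1, Col8a2, Col4a2, Col9a2 and Col18a1), against 7.76% of all genes, and below them for 1 (Col6a5), against 7.44%. Of these, Col4a2 stood at 4356 and 3514 in WT and 4677 to 5474 in KO (log2 0.36, SE 0.19) and Col18a1, the multiplexin that carries endostatin, at 761 and 806 in WT and 881 to 1083 in KO (log2 0.31, SE 0.23). The endothelial marker share was 0.0492% and 0.0609% in WT and 0.0593% to 0.0684% in KO, and that of pericytes and smooth muscle 0.0557% and 0.082% in WT and 0.0655% to 0.086% in KO. Their part in these differences was not tested. Col1a1 averaged 374716 ± 266971 in WT and 311504 ± 17644 in KO (log2 -0.06, SE 0.43).

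**Figure D4:**
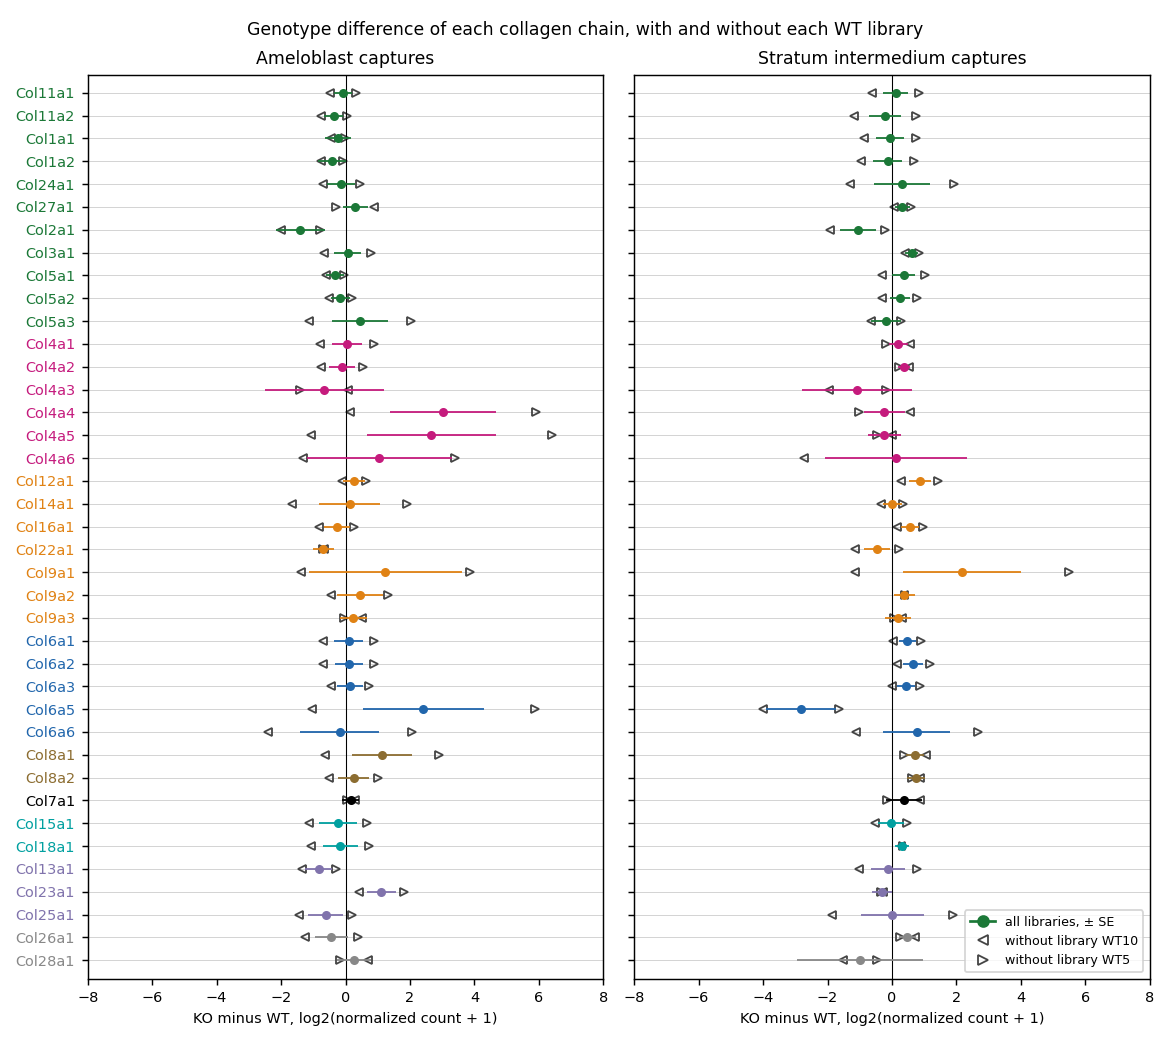
KO minus WT difference of each of 39 collagen chains on the log2(normalized count + 1) scale in ameloblasts (left) and stratum intermedium (right). Filled points are the limma estimates with SE from 2 WT and 3 KO libraries, and open triangles the estimates without WT10 (pointing left) or without WT5 (pointing right). Without one or the other WT library the estimate has opposite signs for 30 of 40 chains in ameloblasts and 20 of 39 in the stratum intermedium. An example is Col1a1 in the stratum intermedium, at -0.86 and 0.74. Any gene whose KO mean lies between the 2 WT values has opposite signs, and the share of all genes was not counted.

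The sign of the family's median differed with the WT library left out. In ameloblasts the median difference of the 40 chains was -0.69 without WT10, with 12 chains lower and 1 higher at an unadjusted p under 0.05 in limma, where 2.46% of all genes were lower and 5.66% higher. It was 0.59 without WT5, with 13 chains higher and 0 lower, where 7.91% of all genes were higher and 1.35% lower. In the stratum intermedium the median was -0.30 without WT10, with 10 chains lower and 3 higher, where 1.71% of all genes were lower and 1.29% higher. It was 0.46 without WT5, with 16 of 39 chains higher and 0 lower, where 8.57% of all genes were higher and 1.84% lower. Of the single chains, 16 of 40 in ameloblasts and 11 of 40 in the stratum intermedium had the other sign without WT10. The share of all genes with such a change of sign was not counted. These fits rest on a lone WT library that is assumed to vary like the others, and 0 genes passed an adjusted limma p of 0.05 in them, against 496 to 1713 with an unadjusted p under 0.05. Col3a1, Col12a1, Col8a1 and Col8a2 kept a higher KO value in the stratum intermedium in all 5 leave-one-out fits. That sign was fixed in advance, because all KO libraries of these chains lay above both WT libraries there. Library names also end in a group number that the labels do not explain, which is 1 for WT5 and KO3, 2 for WT10 and KO9 and 3 for KO1. Within group 1 (KO3 minus WT5) the median difference of the chains was -0.60 in ameloblasts and -0.04 in the stratum intermedium, and within group 2 (KO9 minus WT10) it was 0.58 and 0.54, each from 1 library a genotype and with no test. In the stratum intermedium the group 1 and group 2 values were 0.61 and 0.69 for Col3a1, 0.06 and 1.61 for Col12a1, 1.17 and 0.44 for Col8a1, 0.52 and 0.62 for Col8a2 and -2.99 and -1.64 for Col6a5. For Col23a1 in ameloblasts they were 0.70 and 1.58. The KO and WT libraries of each chain given here did not overlap, so its group 1 and group 2 values had to share a sign.

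The genotype difference itself was compared between the layers on the ameloblast minus stratum intermedium value of each prefix. With limma, 0 of 15567 genes passed an adjusted p of 0.05 (0% of all genes), and 747 had an unadjusted p under 0.05. At an unadjusted p under 0.05, of 39 chains 1 was higher (Col6a5, 5.23, SE 1.47), where 2.57% of all genes were, and 1 lower (Col16a1, -0.84, SE 0.32), where 2.23% were, both with an adjusted p of 0.864 in limma. Col16a1, a FACIT chain, stood at 918 and 1916 in WT and 799.8 to 1469.9 in KO ameloblasts, and at 880.0 and 1548 in WT and 1542 to 1845 normalized counts in KO stratum intermedium. The groups overlapped in both layers. Col6a5 was listed at 0 in WT10 of the ameloblast captures, and without that prefix its difference between the layers was 2.97. For Col3a1, Col12a1, Col8a1 and Col8a2 the difference between the layers was -0.54, -0.61, 0.41 and -0.50, all with an unadjusted limma p above 0.05, so the KO minus WT differences of these chains were not shown to differ between the layers. With the library group number as a block, 0 chains were higher, where 2.38% of all genes were, and 1 was lower (Col6a6), where 2.00% were.

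Which chains follow Col1a1 was read from Pearson r with Col1a1 over the 10 libraries, each on the log2(normalized count + 1) scale minus its layer mean, with 0.9 as the threshold. The 10 libraries come from 5 prefixes and share their normalization, so no p is given. Of 38 chains compared, 4 reached the threshold, Col25a1 (0.985), Col11a2 (0.965), Col1a2 (0.948) and Col11a1 (0.943), against 0.264% of 15528 other genes. Just below the threshold came Col5a2 (0.888), Col13a1 (0.877), Col24a1 (0.873) and Col5a1 (0.872). Fibrillar chains had a median r of 0.872, Col6 chains 0.594, FACIT chains 0.509 and Col4 chains 0.048, against 0.487 for all chains and 0.020 for other genes. Some fibrillar chains had far lower values, with r = 0.403 for Col3a1, 0.464 for Col5a3, 0.597 for Col2a1 and 0.081 for Col27a1. Below 0 were 8 chains, and the 5 lowest were Col7a1 (-0.460), Col9a3 (-0.272), Col4a4 (-0.161), Col4a1 (-0.128) and Col8a1 (-0.038). The Col1a1 follower set depended on the libraries, and without both WT5 libraries r was 0.986 for Col25a1, 0.904 for Col11a1, 0.897 for Col11a2 and 0.871 for Col1a2, while Col5a2 (0.947) and Col5a1 (0.936) were above the threshold. The 2 abundant Col4 chains had opposite signs in the layers, with r = 0.709 for Col4a1 and 0.778 for Col4a2 over 5 ameloblast libraries and -0.668 and -0.463 over 5 stratum intermedium libraries.

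**Figure D5:**
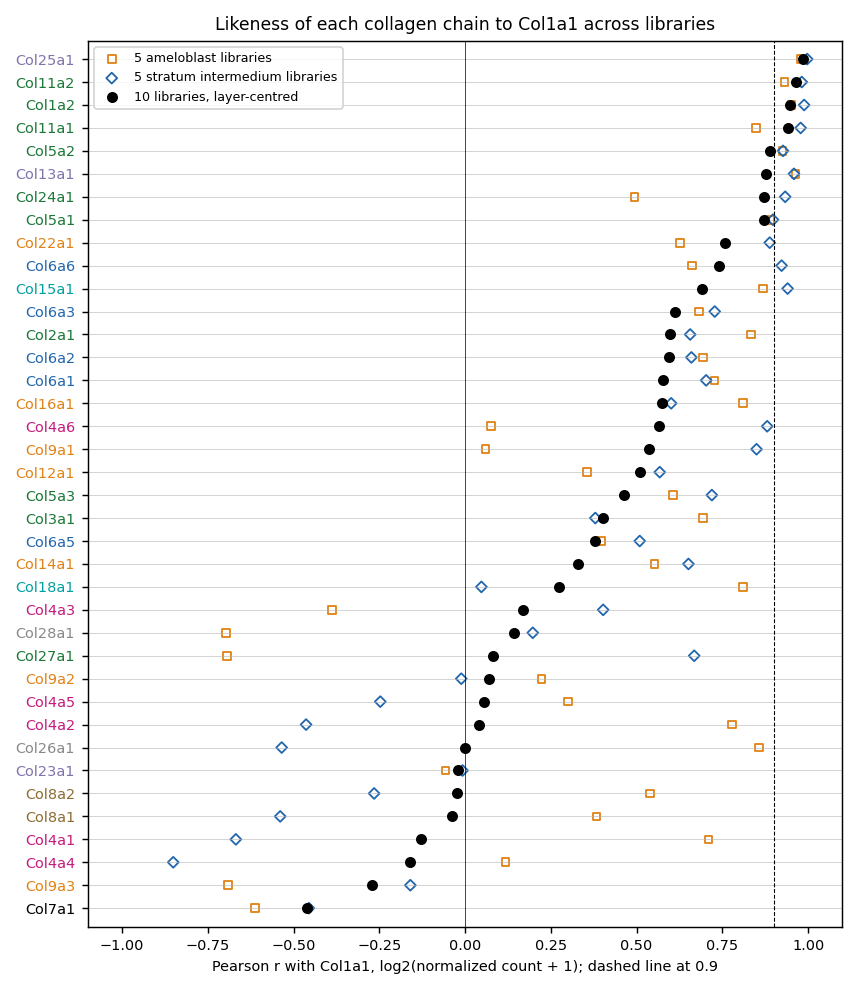
Pearson r of each of 38 collagen chains with Col1a1 on the log2(normalized count + 1) scale, ordered by the value over 10 layer-centred libraries (black), with the values in the 5 ameloblast (orange squares) and 5 stratum intermedium libraries (blue diamonds) alone and a dashed line at 0.9. Gene names are coloured by class. Col25a1, Col11a2, Col1a2 and Col11a1 lie at or above 0.9, and Col7a1 is lowest.

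Col11a1 and Col11a2 encode partner chains of type XI collagen, and Col25a1 encodes a transmembrane collagen known from neurons and from the innervation of muscle. Col25a1 (chromosome 3, 130131501 to 130599877) stood at 144 in WT10, 449 in WT5, 131 in KO1, 179 in KO3 and 193 normalized counts in KO9 of the ameloblast captures, and at 57.6, 782, 198, 262 and 191 in the same order in the stratum intermedium. Its library order was that of Col1a1 in the stratum intermedium and differed by WT10 and KO3 changing places in ameloblasts. Its spread was wider than that of Col1a1, with an SD of 1.07 against 0.43 on the layer-centred log2 scale. Col11a1 kept the steadiest ratio to Col1a1 of the 38 chains, with an SD of 0.15 for the log2 ratio, followed by Col1a2 at 0.18, Col11a2 and Col5a2 at 0.20 and Col5a1 at 0.22. Among genes that are not collagen chains, the highest r with Col1a1 were those of Sparc (0.959), which encodes a collagen-binding matrix protein of bone, Bmp6 (0.956), a bone morphogenetic protein, Ptprj (0.954), Ptprs (0.953) and Ccdc80 (0.951). The bone genes Ibsp and Spp1 had 0.878 and 0.732, the fibroblast genes Dpt and Dcn 0.838 and 0.805. Genes of these cell types did not all have such high values. The bone genes Bglap, Dmp1 and Alpl had 0.641, 0.561 and -0.187. The fibroblast genes Lum and Fbn1 had 0.670 and 0.557, and the dentin gene Dspp 0.129. The epithelial keratins Krt5 and Krt14 had -0.705 and -0.655.

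The sequences before the RefSeq starts of the 4 followers are shown as promoter windows of the chains that vary with Col1a1. Each runs 250 bases up to the start site in RefSeq (GRCm38.p6), and capitals mark CCAAT, a common promoter motif, on either strand (ATTGG on the other). They lie on the plus strand at chr6:4505368-4505617 (Col1a2), chr3:114030290-114030539 (Col11a1), chr17:34038888-34039137 (Col11a2) and chr3:130180595-130180844 (Col25a1). RefSeq and GENCODE starts can differ. The Col1a2 and Col25a1 windows lie inside the genes as placed by GENCODE, which start at 4504814 and 130131501. The Col11a2 window ends before the GENCODE start at 34039437.
Col1a2: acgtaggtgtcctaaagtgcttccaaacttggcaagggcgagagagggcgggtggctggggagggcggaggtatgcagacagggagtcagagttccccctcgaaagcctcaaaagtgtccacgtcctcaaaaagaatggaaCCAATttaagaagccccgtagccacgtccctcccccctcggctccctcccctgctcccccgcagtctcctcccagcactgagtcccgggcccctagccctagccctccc
Col11a1: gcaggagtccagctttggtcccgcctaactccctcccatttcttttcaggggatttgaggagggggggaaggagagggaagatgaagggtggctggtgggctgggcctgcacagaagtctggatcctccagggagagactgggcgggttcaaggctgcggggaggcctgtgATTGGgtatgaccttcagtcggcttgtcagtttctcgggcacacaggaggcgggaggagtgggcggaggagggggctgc
Col11a2: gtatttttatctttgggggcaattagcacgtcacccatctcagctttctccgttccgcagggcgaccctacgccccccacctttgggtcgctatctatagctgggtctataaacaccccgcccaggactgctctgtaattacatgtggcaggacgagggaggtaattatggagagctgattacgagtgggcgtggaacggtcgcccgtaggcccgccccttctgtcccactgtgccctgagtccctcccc
Col25a1: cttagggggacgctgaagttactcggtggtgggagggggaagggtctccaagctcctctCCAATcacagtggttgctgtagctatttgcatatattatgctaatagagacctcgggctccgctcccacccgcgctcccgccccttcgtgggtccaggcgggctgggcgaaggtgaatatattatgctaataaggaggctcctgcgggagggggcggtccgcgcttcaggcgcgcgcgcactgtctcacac
The CCAAT letters begin 109 bases before the start in Col1a2, 79 bases before it in Col11a1 and 191 bases before it in Col25a1, and are not in the Col11a2 window. Of 32 collagen chains with a promoter in the table, 12 held CCAAT on either strand, against 33.8% of 32851 promoters. GGGCGG, the core letters of GC boxes, on either strand was in 21 of 32, all 4 shown included, against 32.7% of promoters. TATAAA on either strand was in 3 of 32 (Col3a1, Col11a2 and Col13a1), against 12.4% of promoters. These counts are of chains and the shares are of promoters. Col6a2, Col9a1 and Col18a1 had more than a single window, and a chain counted if any of its windows held the letters. A match of letters describes the window and was not tested against binding.

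Likeness was also read against Col3a1 and Col4a1, 2 reference chains chosen after their values were seen. The r of Col3a1 with Col1a1 was 0.403, but 0.710 without both WT5 libraries and 0.008 without both WT10 libraries. With Col3a1 the highest r were those of the collagen VI chains Col6a2 (0.946), Col6a1 (0.913) and Col6a3 (0.858), followed by Col4a2 (0.847). With Col1a1 these Col6 chains had 0.594, 0.576 and 0.612, and without both WT5 libraries 0.773, 0.683 and 0.716. With Col4a1 they were those of Col4a2 (0.911), Col8a1 (0.818), Col8a2 (0.783) and Col18a1 (0.780). The endothelial genes Cdh5 and Pecam1 had r = 0.885 and 0.796 with Col4a1 and 0.074 and 0.230 with Col1a1. Among chains that assemble with each other, r was 0.914 for Col5a1 with Col5a2, 0.891 for Col11a1 with Col11a2 and 0.838 for Col8a1 with Col8a2. Without both WT5 libraries these were 0.865, 0.744 and 0.781, and Col4a1 with Col4a2 was 0.794.

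The genes that make, bind and break down collagen were counted in 8 lists. Of all genes, 53.0% were higher in KO ameloblasts (median 0.04) and 51.9% in KO stratum intermedium (median 0.02). At an unadjusted limma p under 0.05, 2.25% of all genes were higher and 0.82% lower in ameloblasts. In the stratum intermedium these shares were 1.27% and 0.786%. The lists were not counted without WT10 or without WT5. In KO against WT with limma, 0 genes of any list passed an adjusted p of 0.05 in either layer, and the smallest adjusted p were 0.989 in ameloblasts and 0.9999 in the stratum intermedium. Of 20 folding and modification genes, 13 were higher in KO ameloblasts (median 0.26) and 15 in KO stratum intermedium (median 0.14), where P4ha3, a proline hydroxylase subunit, stood at 298 and 267 in WT and 538 to 1131 in KO (limma, adjusted p = 0.9999). Of 11 export genes, 9 were higher in KO ameloblasts (median 0.21), with Sec23a, a coat subunit of the vesicles that leave the endoplasmic reticulum, at 1185 and 1433 in WT and 1859.9 to 2201 in KO (limma, adjusted p = 0.989), and 7 in the stratum intermedium (median 0.05). Of 14 processing and cross-linking genes, 9 were higher in KO ameloblasts and 7 in KO stratum intermedium. In ameloblasts Tgm2, a transglutaminase that cross-links proteins, stood at 1088 and 967 in WT and 312 to 699 in KO (limma, adjusted p = 0.989). Adamts3, which trims procollagen, stood at 0 and 20.7 in WT and 45.0 to 112 in KO there (limma, adjusted p = 0.989).

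Of 18 collagen-binding matrix genes, 12 were higher in KO ameloblasts (median 0.15) and 15 in KO stratum intermedium (median 0.46). In the latter Aspn stood at 4001 and 8667 in WT and 8575 to 14531 in KO, and Matn2 at 1028 and 1171 in WT and 1476 to 1972 in KO (limma, adjusted p = 0.9999 for both). Of 18 basement membrane partners of collagen IV, 14 were higher in KO in each layer (medians 0.23 and 0.16). Nid1, which links laminin to collagen IV, stood at 5367 and 3709 in WT and 6382 to 7375 in KO stratum intermedium (log2 0.60, SE 0.21, limma, adjusted p = 0.9999), and the laminin chain Lamc3 at 266 and 162 in WT and 271 to 594 in KO (limma, adjusted p = 0.9999). The Nid1 groups overlapped in ameloblasts.

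Of the collagen receptors, 7 of 9 were higher in KO ameloblasts (median 0.13) and 7 of 10 in KO stratum intermedium (median 0.10). Itga2, the integrin chain that binds fibrillar collagen, stood at 1160 and 803 in WT and 1467 to 2309 in KO ameloblasts (limma, adjusted p = 0.989). Of 12 collagen breakdown genes, 10 were lower in KO ameloblasts (median -0.42) and 8 in KO stratum intermedium (median -0.15). Mmp9, a gelatinase abundant in osteoclasts, stood at 18942 and 35592 in WT and 4509 to 16899 in KO ameloblasts (limma, adjusted p = 0.989), beside an osteoclast marker share, which includes Mmp9, of 0.348% and 0.763% in WT and 0.103% to 0.456% in KO. The part of osteoclasts in this was not tested. Of 14 regulators of collagen genes, 7 were higher in KO ameloblasts and 6 in KO stratum intermedium, and Ccn2, a matricellular growth factor, stood at 185 and 395 in WT and 24.95 to 87.6 in KO ameloblasts (limma, adjusted p = 0.989). The remaining list genes with the smallest p were Fkbp14, Pdia3, Klhl12, Prelp, Matn2, Lama5, Lama4, Ddr1, Ctsk and Mkx in ameloblasts and Colgalt1, Trappc2, Mia3, Tgm2, Adamts2, Itga11, Itga10, Mmp2, Mmp20, Tgfb3 and Smad3 in the stratum intermedium. Their unadjusted limma p was above 0.05, and that of every list gene given with values above was under it.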

How the data were processed

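Laser-captured ameloblasts and stratum intermedium were profiled in 10 polyA RNA-seq libraries. The authors deposited 1 table of DESeq2-normalized counts (a signal, fractional) per layer. Per the submitters' processing notes, FastQC, STAR 2.5.2b, Picard 2.8.1, featureCounts, DESeq and GRCm38 were used, with no role or order given. Per the deposited table names, Ensembl release 101 was used and outliers were left out. Every listed gene is at 10 or more in at least 3 libraries. Whole reads could not be recovered, so depth is unknown and no count test was run.

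Genes with a mean of at least 10 were tested on log2(value + 1) with limma 3.58.1 (trend, R 4.3.3), Benjamini-Hochberg adjusted over all genes, once per layer and once for the difference between layers per prefix. The added 1 shrinks the log2 difference of low values, but a library at 0 can make it larger than that of the group means. Col6a5 in ameloblasts had means of 59.4 in WT and 64.2 in KO. Its log2 difference was 2.91 with 0.5 added, 2.42 with 1 added and 1.05 with 8 added. The fits were tested on simulated data. Of genes changed by a log2 of 2, 38% were recovered in ameloblasts, 44% in the stratum intermedium and 0% for the layer difference. At a log2 of 4 these were 78%, 80% and 46%, so smaller differences can be missed. Gene positions and exon lengths are from GENCODE M21 (GRCm38), promoters from RefSeq. The members and lists were chosen with earlier results of these data known. Named were Col1a1, fibrillar and Col4 chains, other chains with an unadjusted p under 0.05, the 5 highest and 5 lowest in likeness to Col1a1, the 5 most alike other genes, and per list the 2 smallest p and any under 0.05; Col22a1 and the chains singled out for level, layer or non-overlap were chosen after their values were seen. The prefix of a library name was used to join layers.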

Additional observations from a re-analysis of the deposited data

How the results depend on the processing

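In each of the 3 comparisons 0 genes passed an adjusted limma p of 0.05 under every alternative run (other pseudocounts, filters and scalings, library weights, blocks, sex as a covariate, each library left out). Leaving out 1 library in turn gave median differences of -0.69 to 0.59 for all chains, -0.65 to 0.042 for fibrillar chains and -0.78 to 2.14 for Col4 chains in ameloblasts. In the stratum intermedium the ranges were -0.30 to 0.46, -0.66 to 0.75 and -0.19 to 0.34, and that of Col1a1 was -0.86 to 0.74. WT10 and WT5 gave the ends of these ranges except for the Col4 chains of the stratum intermedium. Likeness to Col1a1 reached 0.9 in 9 chains within the stratum intermedium alone, where 3.23% of other genes did. With each prefix left out it did so in 4 to 7 chains and in 0.283% to 1.43% of other genes. With all 10 libraries 0.264% of other genes did. Replicate numbers were shared by groups but deviations did not pair (r = 0.086 and -0.116 in ameloblasts, -0.187 and -0.133 in the stratum intermedium). With a replicate block, 354 against 498 genes had an unadjusted p under 0.05 in ameloblasts and 185 against 340 in the stratum intermedium, where the Col4 median was 0.34. KO replicate 3 has no WT partner there. Deviations of libraries with the same group number had r = 0.116 and 0.273 in ameloblasts and 0.0059 and 0.187 in the stratum intermedium, and this block gave 353, 489 and, for the layer difference, 683 against 747 genes with an unadjusted p under 0.05. The layer difference is itself taken within each prefix, and a replicate block was not possible for it because KO replicate numbers differ between layers. With sex as a covariate the genotype difference rests on KO9 against both WT libraries, because KO1 and KO3 alone had abundant Xist. The median difference of the chains in that fit was 0.01 in ameloblasts and 0.16 in the stratum intermedium. Of single-chain values under these alternatives, 191 differed from the reported value by more than its standard error and 1625 did not. The 1625 include the values under another p threshold or low-value filter, which leave the difference of a tested chain unchanged. The unknown depth limits chains with values near 0, such as Col4a3 and Col4a6.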
